A study of Mus musculus with 6 samples.

Results

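The corticotropin-releasing hormone (CRH) system genes measured here are Crh, Crhbp, Crhr1 and Crhr2, 4 of the 56748 genes in a count table of the mouse cerebellum. They were selected by symbol, and the set was chosen on measured values: Crhbp and Crhr2 had among the largest rises in the comparison of exposed with control mice. The exposed mice (MeHg, n = 3) were born to C57BL/6 dams that drank water with 0.2 ppm methylmercury, an organic mercury compound toxic to neurons, for the whole of gestation. The controls (n = 3) were born to dams whose water held 0 ppm. All 6 mice are labelled C57BL/6J and were 90 to 120 days old, and the dams were dosed until birth. By the labels, MeHg replicates 1 and 3 and Control replicates 1 and 2 were female, and MeHg replicate 2 and Control replicate 3 were male. No dam or litter is given, so any p-value covers the spread between these 6 samples, which may share a litter.

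CRH is the hypothalamic peptide that drives the release of adrenocorticotropic hormone from the pituitary. In the cerebellum it acts as a neuromodulator: neurons of the inferior olive in the brainstem make it and release it from climbing fibres onto Purkinje cells. CRHR1 and CRHR2 are class B G protein-coupled receptors that raise cyclic AMP, and CRHBP is a secreted protein that binds CRH and urocortin and keeps them from the receptors. The urocortins (Ucn, Ucn2, Ucn3) are the related ligands.

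The libraries held 14487022 to 15975367 counts in MeHg and 14116088 to 20303833 counts in controls. Of the 4 genes, all 4 passed the filter on low counts, as did 16859 genes of the table. The dissections carried the markers of their labelled tissue: Gabra6, the GABA receptor subunit of granule cells, was at 435 to 558 CPM (counts scaled to library size) in MeHg and 687 to 797 CPM in controls. Control replicate 2, labelled female, had 5 counts of Xist, the RNA of the inactive X chromosome, while the other libraries labelled female had 10297 to 15226. MeHg replicate 2 and Control replicate 3 stood apart in markers of tissue next to the cerebellum, with values given below beside the genes they move with. In bulk tissue, a change in the number of cells and a change in RNA per cell cannot be told apart.

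Per kilobase of gene length, Crhr1 was far above the other 3 genes. In the deposited FPKM values (fragments per kilobase of gene length, scaled to the library's total) it averaged 27.8 ± 5.46 in MeHg and 40.1 ± 6.22 in controls (SD, n = 3 each), and its mean over all libraries exceeded that of 92.5% of the tested genes. Crh averaged 1.36 ± 1.09 FPKM in MeHg and 0.328 ± 0.0808 FPKM in controls. Crhbp averaged 0.949 ± 0.453 FPKM in MeHg and 0.174 ± 0.0929 FPKM in controls. Crhr2 averaged 0.727 ± 0.336 FPKM in MeHg and 0.156 ± 0.101 FPKM in controls. The order Crhr1, Crh, Crhbp, Crhr2 was the same in both groups, but in each group the libraries' values of Crh overlapped those of Crhbp, and those of Crhbp overlapped those of Crhr2. They were near the bottom of the tested range, above 18.4%, 12.7% and 9.41% of tested genes.

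**Figure D1:**
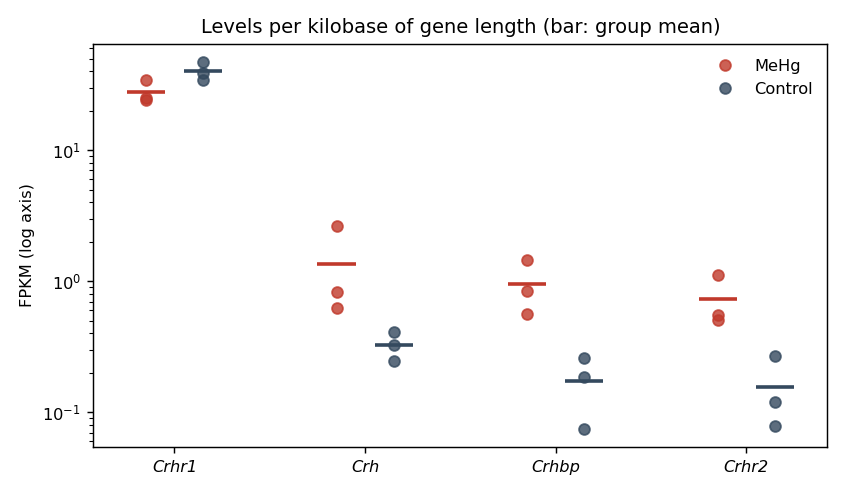
FPKM of the 4 genes on a log axis, with a point per library (MeHg left of Control in each pair) and a bar at the group mean. Crhr1 lies between 24.1 and 46.8 FPKM, and every value of the other 3 genes lies at or below 2.62 FPKM.

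The genes lie on 4 chromosomes, so no pair of them is neighbouring. In the coordinates of the deposited table (mm39), Crh is at chromosome 3, 19747565 to 19749560, Crhbp at chromosome 13, 95567879 to 95581432, Crhr1 at chromosome 11, 104023681 to 104066349, and Crhr2 at chromosome 6, 55067034 to 55110001. All are protein-coding, and 0 other genes of the table overlap any of them, so their counts are not shared with an overlapping or antisense gene. The reference annotation (GENCODE vM39) gives their main transcripts 2, 7, 13 and 12 exons in the order Crh, Crhbp, Crhr1, Crhr2.

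The promoters of 3 of the 4 genes, as RefSeq gives them on GRCm38.p6, are printed here because Crhbp and Crhr2 were higher in MeHg and Crhr1 lower. Each runs from 250 bases before the annotated start site to 50 bases after it, 5′ to 3′ on the strand of the gene. Capitals mark matches to TGACG, on either strand, and to TATAAA, both described after the sequences. Crhbp lies at chr13:95444782-95445081 on the minus strand, Crhr2 at chr6:55132967-55133266 on the minus strand, and Crhr1 at chr11:104132531-104132830 on the plus strand.
Crhbp: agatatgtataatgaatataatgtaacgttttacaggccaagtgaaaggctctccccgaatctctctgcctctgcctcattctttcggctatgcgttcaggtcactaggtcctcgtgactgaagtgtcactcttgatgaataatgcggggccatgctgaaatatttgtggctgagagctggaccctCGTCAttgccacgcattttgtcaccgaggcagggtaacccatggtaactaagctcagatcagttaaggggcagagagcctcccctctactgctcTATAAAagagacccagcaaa
Crhr2: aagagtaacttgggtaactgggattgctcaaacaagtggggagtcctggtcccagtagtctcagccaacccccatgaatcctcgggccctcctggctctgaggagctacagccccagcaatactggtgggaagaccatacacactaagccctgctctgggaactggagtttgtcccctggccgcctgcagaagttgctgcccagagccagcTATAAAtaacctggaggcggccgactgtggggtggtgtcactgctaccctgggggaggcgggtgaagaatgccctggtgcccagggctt
Crhr1: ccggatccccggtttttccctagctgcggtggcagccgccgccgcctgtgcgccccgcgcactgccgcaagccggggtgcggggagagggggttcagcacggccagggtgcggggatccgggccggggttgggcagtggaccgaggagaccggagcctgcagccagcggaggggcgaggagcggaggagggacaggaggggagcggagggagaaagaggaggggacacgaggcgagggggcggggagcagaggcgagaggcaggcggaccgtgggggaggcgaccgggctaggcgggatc

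The 3 promoters were searched on both strands for the full cyclic AMP response element TGACGTCA, bound by CREB, the shorter TGACG (which the full element contains), the E-box CANNTG and the TATA box TATAAA, the last of these added after the sequences were seen. The full element was in 0 of the 3, and in 1.79% of all 32851 RefSeq promoters of that length. TGACG was in Crhbp alone, once and on the opposite strand, with its first base at position -64 from the start site, against 20.8% of all promoters. TATAAA was in Crhbp (first base at position 31, downstream of the annotated start) and in Crhr2 (at position -39), against 13.6% of all. The E-box was in Crhbp and Crhr2, 1 match each, against 72.3% of all. The Crhr1 sequence held none of these 4 motifs and was richer in G and C, at 75%, than those of Crhr2 (59%) and Crhbp (48%), where the median over all promoters was 52.7%. Matches describe these windows and do not show binding.

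The comparison set adult offspring exposed before birth against unexposed ones. Crhbp, the binding protein, had counts of 26, 43 and 16 in MeHg replicates 1, 2 and 3, and 7, 10 and 2 in Control replicates 1, 2 and 3. In CPM these were 1.61, 2.81 and 1.08 in MeHg, against 0.355, 0.499 and 0.144 in controls. Every MeHg library lay above every control, and MeHg replicate 2 was the highest. The group means were 1.83 ± 0.889 CPM in MeHg and 0.333 ± 0.179 CPM in controls (SD, n = 3 each). The edgeR fit put the log2 fold change at 2.37 with an SE of 0.50. Counts this low carry wide counting error: the 95% Poisson interval was 1.05 to 2.36 CPM in MeHg replicate 1 and 0.0174 to 0.519 CPM in Control replicate 3.

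Crhr2, the receptor that Ucn2 and Ucn3 prefer, had counts of 45, 47 and 90 in MeHg replicates 1, 2 and 3 and 29, 13 and 6 in the controls. These were 2.78, 3.08 and 6.07 CPM in MeHg, against 1.47, 0.649 and 0.431 CPM in controls. The groups did not overlap, but the highest MeHg library was replicate 3, not replicate 2 as for Crhbp. The means were 3.97 ± 1.82 CPM in MeHg and 0.850 ± 0.548 CPM in controls. The log2 fold change was 2.17 ± 0.47 (SE here and for the other fold changes). Of the called genes whose mean reached 1 CPM, Crhbp had the largest fold and Crhr2 the third largest. Just outside were Klc3, a kinesin light chain, at 2.26 ± 0.41, between the 2 genes, and the cilium genes Cfap52 (2.11 ± 0.31) and Cfap65 (2.05 ± 0.31) after them. Among all 16859 tested genes, called or not, Crhbp ranked 15 and Crhr2 ranked 32 by log2 fold change. As the set was chosen on these rises, nothing is read from the ranks. Both genes had control means under 1 CPM, so they reached a mean of 1 CPM through the MeHg libraries.

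Crh itself, the ligand, had counts of 19, 57 and 13 in MeHg and 9, 7 and 8 in controls. These were 1.17, 3.73 and 0.876 CPM in MeHg, against 0.457, 0.349 and 0.575 CPM in controls. MeHg replicate 2 stood well above the other 5 libraries, and MeHg replicates 1 and 3 were also above the controls. In MeHg replicate 1 the lower 95% counting limit, 0.707 CPM, exceeded all 3 control values. The 95% counting interval of MeHg replicate 3, 0.467 to 1.499 CPM, held 1 of the 3 control values. The log2 fold change was 2.07 ± 0.59. Without MeHg replicate 2 it was 1.18, and without both libraries numbered 2 it was 1.01.

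Crhr1, the main receptor by level, had the opposite sign. It was at 89.5, 66.8 and 63.2 CPM in MeHg (1448, 1021 and 938 counts) and at 102, 90.6 and 123 CPM in controls (2012, 1817 and 1705 counts). The groups were separate by a narrow margin on these scaled libraries, MeHg replicate 1 being just below Control replicate 2. With CPM on unscaled totals those libraries were at 90.6 and 89.5 CPM, so the groups overlapped. The means were 73.2 ± 14.3 CPM in MeHg and 105 ± 16.2 CPM in controls. The log2 fold change was -0.52 ± 0.15.

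Of the 4 genes, 2 (Crhbp and Crhr2) were called at an adjusted p under 0.05 by the edgeR quasi-likelihood test, both higher in MeHg and both just inside that threshold, against 2.36% of all tested genes in either direction and 0.575% called higher. As the set was chosen from this contrast, nothing is read from that count. Crh and Crhr1 were not called. In 3 of the 4 the MeHg libraries all lay above the controls, as for 13.9% of tested genes, and in Crhr1 all lay below, as for 15.5%. The number called was 1 without MeHg replicate 2 (Crhr2) and 0 without any other single library, namely MeHg replicates 1 or 3 or Control replicates 1, 2 or 3. DESeq2 called all 4, and limma-voom called 0. Of all 16859 tested genes, DESeq2 called 1394 and limma-voom 358. By edgeR, 4132 of the 16859 were at an unadjusted p under 0.05. These counts are the background for the gene and marker lists below.

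**Figure D2:**
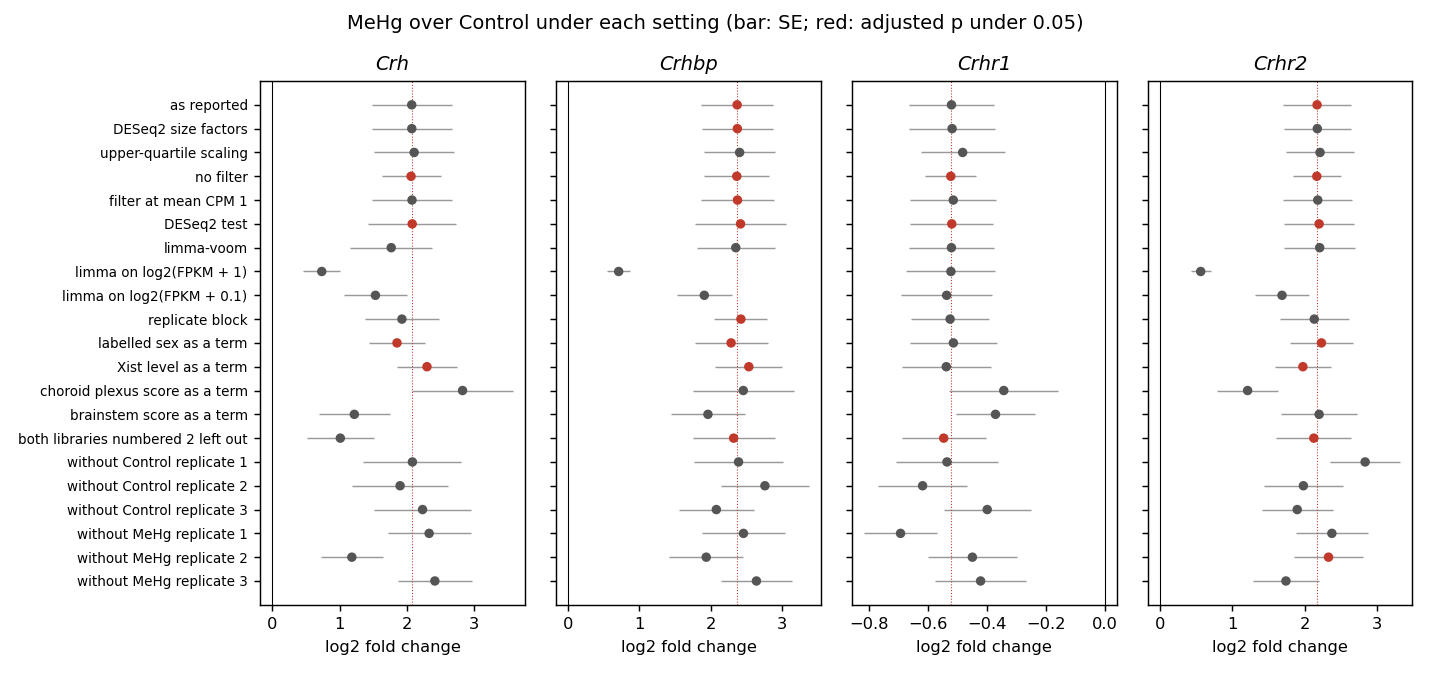
Log2 fold change (MeHg over Control, bar: SE) of each gene as reported and under 20 other settings, with red points at an adjusted p under 0.05. No point crosses 0, and the red points differ between settings.

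**Figure D3:**
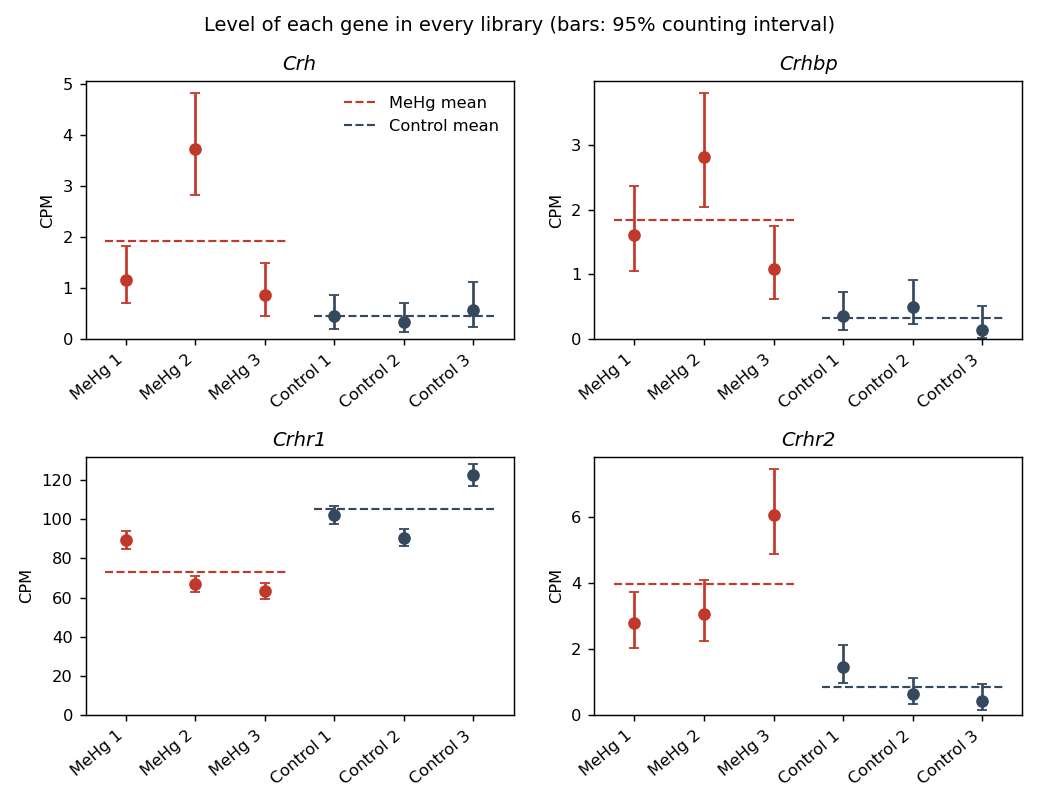
CPM of each gene in each library (3 MeHg, then 3 Control), with the 95% Poisson counting interval as a bar and the group mean as a dashed line. MeHg replicate 2 is highest for Crh (3.73 CPM) and Crhbp (2.81 CPM), MeHg replicate 3 for Crhr2 (6.07 CPM), and Crhr1 is lower in MeHg by a small margin.

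Crh and Crhbp were highest in MeHg replicate 2, which also had the highest sum of brainstem neuron markers. Crhr2 was highest in MeHg replicate 3, which also had the highest sum of choroid plexus markers. That library was highest too for ependymal, smooth muscle and pericyte, meningeal fibroblast, forebrain and pituitary markers, so the match is not particular to choroid plexus. Markers of brainstem monoamine and cholinergic neurons (10, of which 7 were tested and edgeR called 0, with 4 at an unadjusted p under 0.05 and 1 called by DESeq2) summed to 19.8, 272 and 36.7 CPM in MeHg replicates 1, 2 and 3 and to 17.03 to 27.1 CPM in controls. MeHg replicate 2, the highest for Crh and Crhbp, held 67.5 CPM of Tph2 and 47.1 CPM of Slc6a4, the serotonin synthesis enzyme and transporter of raphe neurons, while the other 5 libraries had at most 1.48 and 0.539 CPM. Slc6a4 was at 0 counts in Control replicate 3. With the mean log2 CPM of this list as a term in the fit, the log2 fold change was 1.22 for Crh, 1.96 for Crhbp, -0.37 for Crhr1 and 2.20 for Crhr2. In MeHg replicate 1 the list lay within the control range, and Crhbp there was at 1.61 CPM, against at most 0.499 CPM in controls. The list is of monoamine and cholinergic neurons, and the inferior olive, whose neurons make CRH, has no marker list here. The part of brainstem RNA in the rises of Crh and Crhbp was not tested.

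Choroid plexus, the epithelium that makes cerebrospinal fluid and lies against the cerebellum in the fourth ventricle, moved with Crhr2. Of its 12 markers edgeR and DESeq2 called 0, and 8 were at an unadjusted p under 0.05, against 4132 of 16859 tested genes. They summed to 2953, 1678 and 7178 CPM in MeHg replicates 1, 2 and 3, against 2030, 445 and 28.7 CPM in Control replicates 1, 2 and 3. The ranges overlapped, and Kcne2 was at 0 counts in Control replicate 3. Crhr2 and this sum had the same highest library (MeHg replicate 3), and both were highest in replicate 1 and lowest in replicate 3 among the controls. Ttr, the thyroxine carrier of choroid plexus, was at 2554, 1451 and 6381 CPM in MeHg and 1741.5, 358 and 4.60 CPM in controls. With the mean log2 CPM of the list as a term, the log2 fold change of Crhr2 was 1.21 ± 0.42. In the same fit it was 2.46 ± 0.71 for Crhbp, 2.83 ± 0.75 for Crh and -0.34 ± 0.18 for Crhr1. MeHg replicate 2 had less of the list than Control replicate 1 (1678 against 2030 CPM) but more Crhr2 (3.08 against 1.47 CPM). That is 1 pair of libraries, and most of both sums was Ttr (1451 and 1741.5 CPM). The part of choroid plexus RNA in the rise of Crhr2 was not tested.

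Ependymal cells, which carry motile cilia and line the ventricles, were higher in every MeHg library. Their 9 markers summed to 49.8 to 77.6 CPM in MeHg and 22.1 to 31.8 CPM in controls, and none was at 0. Of the 9, edgeR called 3 higher, against 0.575% of all tested genes, DESeq2 called 7 and limma-voom 2. Foxj1, a transcription factor of motile ciliogenesis, was at 21.6, 23.2 and 33.2 CPM in MeHg and 10.1, 13.4 and 11.1 CPM in controls. As for Crhr2, MeHg replicate 3 was the highest. Smooth muscle and pericytes (9 markers, 0 of 7 tested called by edgeR, 5 at an unadjusted p under 0.05, 2 called by DESeq2) summed to 109 to 131 CPM in MeHg and 101 to 104 CPM in controls. Meningeal fibroblast markers (8, 0 called by edgeR, 4 at an unadjusted p under 0.05, 1 called by DESeq2) summed to 97.9 to 147 CPM in MeHg and 84.8 to 122 CPM in controls, which overlap. Forebrain neuron markers (10, 0 of 7 tested called by edgeR, 1 at an unadjusted p under 0.05, 1 called by DESeq2) summed to 189 to 250 CPM in MeHg and 194 to 214 CPM in controls, with Lhx6 at 0 in Control replicate 2. Most of this sum was Ppp1r1b, at 166 to 233 CPM in MeHg and 178 to 199 CPM in controls. Of the 7 tested, 4 log2 fold changes were positive and 3 negative. Drd2 was higher in every MeHg library, at 4.51 to 10.1 CPM against 1.17 to 3.89 CPM in controls. Anterior pituitary markers (6, 0 of 2 tested called by edgeR, 1 at an unadjusted p under 0.05, 0 called by DESeq2) summed to 6.02 to 8.49 CPM in MeHg and 5.82 to 7.41 CPM in controls, with Gh and Cga at 0 in all MeHg libraries.

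Crhr1 was lower in MeHg, as were the summed markers of granule and Purkinje cells, neurons of the cerebellar cortex. Within MeHg both sums were lowest in replicate 2, but Crhr1 was lowest in replicate 3. Among controls Crhr1 and the Purkinje sum were highest in replicate 3, and the granule sum in replicate 1. Granule cell markers (8, all tested) summed to 4399, 3710 and 4087 CPM in MeHg and 5282 to 5624 CPM in controls. Of the 8, edgeR called 4 lower, against 1.79% of all tested genes, DESeq2 called 7 and limma-voom 4. Purkinje cell markers (8) summed to 6510 to 8464 CPM in MeHg and 8536 to 9440 CPM in controls. EdgeR called 0 of the 8 (2 at an unadjusted p under 0.05, 2 called by DESeq2). The largest part of this sum was Itpr1, at 2902 to 3562 CPM in MeHg and 3725 to 4315 CPM in controls. Of the 8 log2 fold changes, 7 were negative and 1 was positive. In 2 of the 8, every MeHg library lay below every control, against 15.5% of all tested genes. Per 1000 CPM of granule markers, a quantity computed after the data were seen, Crhr1 was at 20.35, 18.01 and 15.47 CPM in MeHg and 18.15, 17.16 and 23.15 CPM in controls, and the groups overlapped. Whether the lower Crhr1 came with fewer granule cells was not tested.

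**Figure D4:**
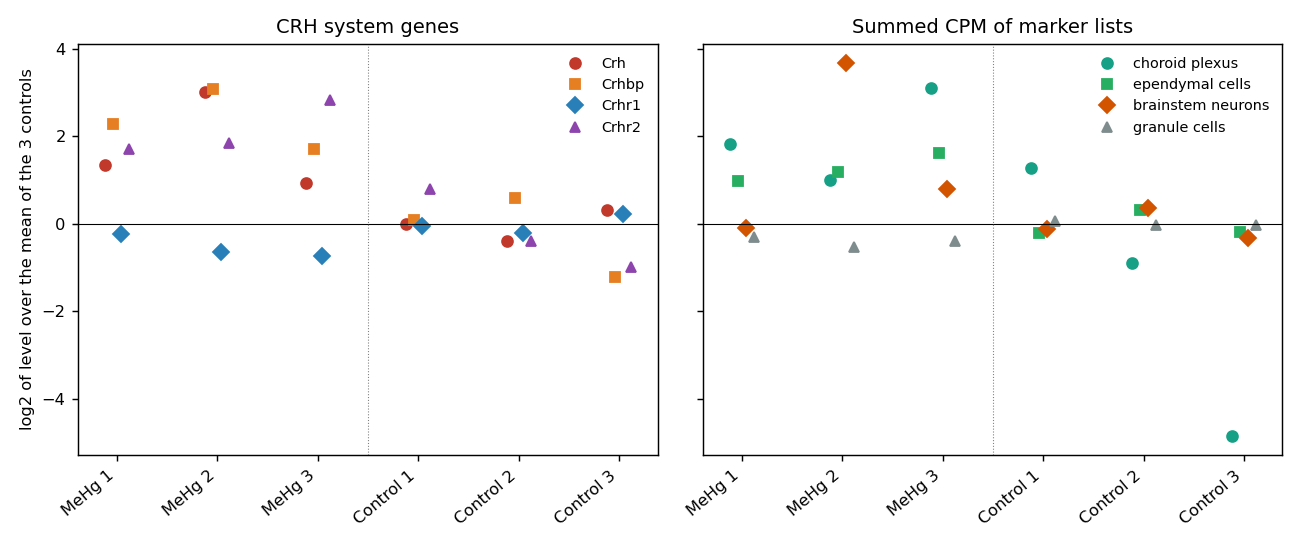
Log2 of the level in each library over the mean of the 3 controls, for the 4 genes (left) and for the summed CPM of 4 marker lists (right), MeHg libraries first. Brainstem markers peak in MeHg replicate 2 with Crh (3.02) and Crhbp (3.08). Choroid plexus and ependymal markers peak in MeHg replicate 3 with Crhr2 (2.84).

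The genes most like each of the 4 over the 6 libraries were ranked by Pearson's r of log2 CPM, among tested genes with a mean of at least 1 CPM. These values describe 6 points that share the group difference. For Crhbp they were Slc38a10 (r = 0.996), Paqr7 (0.995) and Carns1 (0.993), and for Crhr2 Dph6 (0.999), Plpp2 (0.997) and Adgrv1 (0.995). For Crh they were Ehd4 (0.990), Chmp7 (0.989) and Rpf2 (0.988), and for Crhr1 Pdcd2l (0.998), Mprip (0.997) and Gcn1 (0.997). No gene was shared between these lists of 3, which says little because each list was drawn from so many genes. Between the 4 genes themselves, r was 0.84 for Crh with Crhbp, 0.78 for Crhbp with Crhr2 and 0.58 for Crh with Crhr2. For Crhr1 it was -0.62 with Crh, -0.82 with Crhbp and -0.86 with Crhr2. Adgrv1, a very large adhesion receptor, varied less in proportion than Crhr2, at 5.19, 5.04 and 7.21 CPM in MeHg and 3.65, 2.24 and 1.72 CPM in controls. Slc38a10, an amino acid transporter, varied far less than Crhbp, at 94.6, 98.1 and 91.7 CPM in MeHg and 84.1, 87.6 and 80.7 CPM in controls.

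The other ligands of the 2 receptors were near or at 0, and all 3 failed the filter on low counts. Ucn had 17 counts (1.11 CPM) in MeHg replicate 2, the library rich in brainstem markers, and 0 counts in the other 5, which allows up to 0.150 to 0.216 CPM in a library. Urocortin of the rodent brain is made chiefly in the Edinger-Westphal nucleus of the midbrain. Ucn2 had 9, 1 and 1 counts in MeHg and 7, 3 and 10 in controls. Ucn3 had 0 counts in every library but Control replicate 2, which had 2.

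Downstream of the receptors, edgeR called 2 of 25 tested genes of cyclic AMP signalling lower in MeHg and 0 higher, where it called 1.79% of all tested genes lower and 0.575% higher. DESeq2 and limma-voom each called 2 of the 25. Of the 25 log2 fold changes, 13 were positive and 12 negative. Adcy1, a calcium-stimulated adenylyl cyclase of neurons, was at 1750.5, 1686 and 1494 CPM in MeHg and 2424.5, 2245 and 2184 CPM in controls (-0.48 ± 0.09 on the log2 scale, edgeR adjusted p = 0.0433). Creb1, the transcription factor that protein kinase A activates, was at 79.1, 74.0 and 77.5 CPM in MeHg and 102, 91.7 and 99.9 CPM in controls (-0.35 ± 0.07, edgeR adjusted p = 0.0433). Neither gene's groups overlapped, though their folds were small. The median log2 fold change of the 25 genes was 0.00, against 0.01 over all tested genes. Gnas, the stimulatory G protein subunit that both receptors use, was at 0.21 ± 0.12, was not called, and was chosen after its values were seen. Leaving out any library but MeHg replicate 2 ended the call of Adcy1 (adjusted p 0.0632 to 0.207), and that of Creb1 was also kept without Control replicate 2 (0.0480).

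The genes that switch receptors off had small differences. Of 6 kinases and arrestins edgeR called 0 (2 at an unadjusted p under 0.05, 1 called by DESeq2, 0 by limma-voom). Grk5, a receptor kinase, was nearest, at 42.1, 42.7 and 37.8 CPM in MeHg and 55.1, 52.6 and 50.2 CPM in controls (-0.37 ± 0.08, edgeR adjusted p = 0.0519). Grk3 (-0.15 ± 0.06) and Grk2 (-0.12 ± 0.06) had smaller differences. The list's median was -0.05.

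Among 13 other class B peptide hormone receptors, 9 were tested and edgeR called 0 (4 at an unadjusted p under 0.05, 1 called by DESeq2, 0 by limma-voom), with a median log2 fold change of 0.10. Vipr2, a receptor of vasoactive intestinal peptide, was at 11.4, 10.6 and 7.95 CPM in MeHg and 14.6, 17.2 and 13.9 CPM in controls (-0.61 ± 0.16, edgeR adjusted p = 0.0725). Calcrl was at -0.49 ± 0.19, and at -0.27 without both libraries numbered 2. Glp1r, the receptor of glucagon-like peptide, was at 1.18 ± 0.46, and at 3.40 CPM it was highest in MeHg replicate 2, against at most 1.35 CPM elsewhere. Its log2 fold change was 0.54 without that library and 0.47 with the brainstem score as a term. The test of their difference from Crhr2 was not run.

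Of the peptides and receptors of the stress axis, 2 of 7 were tested and 0 were called by edgeR (1 at an unadjusted p under 0.05, 0 by DESeq2 or limma-voom). Oxtr, the oxytocin receptor, was at 1.30, 2.36 and 1.01 CPM in MeHg and 0.609, 0.748 and 1.01 CPM in controls (1.00 ± 0.40), and its log2 fold change was 0.58 without MeHg replicate 2 and 0.62 with the brainstem score. Pomc, the precursor of adrenocorticotropic hormone, was at -0.16 ± 0.45 and its groups overlapped. The corticosteroid receptors and responsive genes, 9 tested, had a median of -0.26, with 0 called by edgeR (3 at an unadjusted p under 0.05, 3 called by DESeq2, 0 by limma-voom). Nr3c1, the glucocorticoid receptor, was at 122, 112 and 112 CPM in MeHg and 146, 134 and 135 CPM in controls (-0.26 ± 0.06, edgeR adjusted p = 0.0624). Zbtb16 (-1.19 ± 0.30) and Klf9 (-0.37 ± 0.09), which glucocorticoids induce, had adjusted p-values of 0.0652 and 0.0578 by edgeR. These 3 were lower in every MeHg library than in any control, as was Hsd11b1 (-0.08 ± 0.06). The same separation held for 15.5% of all tested genes. The groups overlapped in the other 5 tested: Fkbp5 was at 0.01 ± 0.21, Tsc22d3 at -0.27 ± 0.14, Sgk1 at -0.28 ± 0.35, Fkbp4 at -0.11 ± 0.09 and Nr3c2, the mineralocorticoid receptor, at 0.09 ± 0.08.

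Genes of peptide processing and secretory granules, 10 tested, had a median of 0.16 and 0 calls by edgeR (5 at an unadjusted p under 0.05, 4 called by DESeq2, 0 by limma-voom). Pcsk1n, a granin-like inhibitor of a prohormone convertase, was at 570, 665 and 524 CPM in MeHg and 472, 461 and 430 CPM in controls (0.37 ± 0.09). Chga, a granule protein, was at 0.29 ± 0.08 and Chgb, its relative, at -0.36 ± 0.13.

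**Figure D5:**
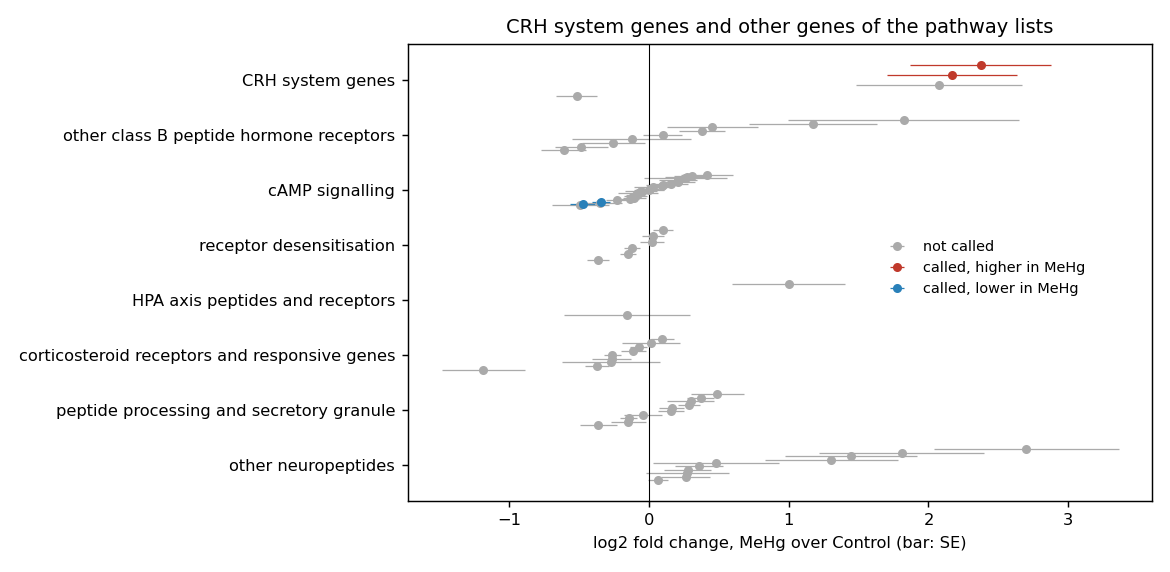
Log2 fold change (MeHg over Control, bar: SE) of every tested gene of the pathway lists. The called rises are Crhbp (2.37) and Crhr2 (2.17) and the called falls are Adcy1 (-0.48) and Creb1 (-0.35). Grey points were not called.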

How the data were processed

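The 4 genes and the gene lists were chosen with earlier results of these data known. RNA was sequenced as paired-end reads of 150 bases, per the labels' protocols, and the submitters' processing notes name mm39 and DESeq2. Aligner, counter and strand setting: not given in the sources used here. Raw counts per gene were deposited by the authors, as were FPKM values. The totals behind the deposited FPKM exceed the summed counts by 8.11% to 9.03% in MeHg and 3.96% to 5.36% in controls, for a reason not given.

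Counts were filtered with filterByExpr, scaled by TMM and compared with edgeR 4.0.16 (quasi-likelihood F test, R 4.3.3) in all 6 libraries, group being the sole term. Benjamini-Hochberg adjustment ran over 16859 genes. The SE is the log2 fold change over the square root of F. For Crh, Crhbp, Crhr1 and Crhr2 the estimates are descriptions. Log2 CPM used a prior count of 2. Poisson intervals and the limit from 3 counts per library cover counting error only. Named were the 4 genes, the urocortins, the called genes of each pathway list or else the 3 with the smallest p, markers among the first 3 of each list, the 3 called genes just outside and 3 genes most like each. Xist, Gnas, Cartpt, Ppp1r1b, Drd2, Itpr1 and markers at 0 were added after their values were seen, as were the other corticosteroid and neuropeptide genes. The values of 1 marker are not reported here. The procedure was tested on simulated data. No libraries were copies (chi-square per degree of freedom 7.11 to 17.8). Alternatives, with DESeq2 1.42.0 and limma 3.58.1, covered scaling, filters, tests, pseudocounts, added terms and left-out libraries.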

Additional observations from a re-analysis of the deposited data

How the results depend on the processing

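In 20 alternatives each, all 4 genes kept their direction: the log2 fold change was 0.74 to 2.83 for Crh, 0.71 to 2.76 for Crhbp, -0.69 to -0.34 for Crhr1 and 0.56 to 2.83 for Crhr2. On log2(FPKM + 1), where 1 exceeds most of their values, Crh was at 0.74, Crhbp at 0.71 and Crhr2 at 0.56. Crh was at 1.22 with the brainstem score and at 1.01 without both libraries numbered 2, and leaving out 1 library gave 1.18 to 2.42. Crhr2 was at 1.21 with the choroid plexus score. Of the 4 genes, 4 were called without a filter, by DESeq2 and at an adjusted p under 0.10, and 3 with labelled sex, with the Xist level and without both libraries numbered 2. With DESeq2 size factors, the filter at a mean of 1 CPM or the replicate block 1 was called, and with upper-quartile scaling, limma-voom, limma on FPKM with 1 or 0.1 added, or either score 0 were. Leaving out 1 library gave 0 to 1. Over all genes, of which 398 were called, the count was 197 with upper-quartile scaling, 2378 without a filter, 1394 by DESeq2, 648 with the replicate block, 609 with labelled sex, 1640 with the Xist level, 1723 without both libraries numbered 2 and 1653 at an adjusted p under 0.10. It was 1 with the brainstem score, and 0 with the choroid plexus score or with limma on FPKM with 1 or 0.1 added (1874, 3874 and 3887 at an unadjusted p under 0.05). Leaving out 1 library gave 0 to 1091. Falls were 75.6% of the calls, but 60.4% with upper-quartile scaling, which moved the median of all genes to 0.04, 49.5% without a filter, 48.4% with the Xist level and 59.2% by DESeq2. The labels do not say whether replicate numbers pair the samples. Deviations of same-numbered libraries correlated at 0.19, 0.35 and -0.24, and those of differently numbered ones at -0.43 to 0.36. With so few libraries per group these values cannot decide it. The log2 fold change of Pomc was 0.57 without both libraries numbered 2, and leaving out 1 library gave -0.61 to 0.32, with 0.09 without MeHg replicate 2. Depth limits Crh, Crhbp and Crhr2, with 2 to 29 counts per control library. Where a value changed, the cause was not tested.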

Other observations

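Of 13 listed neuropeptide genes outside the CRH system, 10 were tested and edgeR called 0 (4 at an unadjusted p under 0.05, 3 called by DESeq2, 0 by limma-voom). All 10 log2 fold changes were positive (8610 of 16859 over all genes) with a median of 0.42. But the MeHg libraries all lay above the controls in only 4 of the 10, against 13.9% of all tested genes. The groups of Npy, Penk, Tac1, Cck, Nts and Calca overlapped. Vip, vasoactive intestinal peptide, was at 2.35, 3.73 and 1.01 CPM in MeHg and 0.0507, 0.549 and 0.503 CPM in controls, a change of 2.70 ± 0.66. Sst, the interneuron peptide somatostatin, was at 16.2, 34.5 and 14.4 CPM in MeHg and 3.20, 13.02 and 7.62 CPM in controls (1.45 ± 0.47). Pdyn, the dynorphin precursor, was at 1.85, 2.81 and 1.35 CPM in MeHg and 0.152, 1.15 and 0.359 CPM in controls (1.81 ± 0.59). The log2 fold change of Sst was 0.95 without MeHg replicate 2 and 0.91 with the brainstem score, and that of Pdyn was 3.01 without Control replicate 2. That of Vip was 4.21 with the choroid plexus score. In these 3 genes, as in Crh and Crhbp, every MeHg library lay above every control and MeHg replicate 2 was the highest. Their edgeR adjusted p-values were 0.0629, 0.114 and 0.114.

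Cartpt, a peptide that the urocortin neurons of the midbrain also make, failed the filter on low counts and was chosen after its values were seen. It was at 5.23 CPM in MeHg replicate 2, against 0.124 and 0.0674 CPM in MeHg replicates 1 and 3 and 0, 0.299 and 0.144 CPM in Control replicates 1, 2 and 3. MeHg replicate 2 was also the 1 library with any Ucn counts.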
